A study of Homo sapiens and Mus musculus with 33 samples.

Results

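The 38 genes described here are human genes of the interferon response and of antigen presentation by MHC class I, listed by name, and all 38 were found in the data. They are 38 of the 36591 gene symbols of the human single-cell libraries, and 38 of 45068 genes and unnamed groups of 3′ UTR intervals in the bulk libraries. By role they comprise 6 genes of MHC class I and its peptide transporter, 6 transcription factors, 2 RNA sensors, 2 proteins of PML nuclear bodies, 1 feedback gene and 21 antiviral effectors or small interferon-induced proteins. The bulk data are SLAM-seq of Jurkat, a T cell leukaemia line of human origin (clone E6-1), in which RNA made during labelling with 4-thiouridine (4sU) is read as T-to-C conversions after iodoacetamide (IAA) treatment. The 9 libraries, controls included, carry 4sU in their titles: 3 are controls, 3 were treated with CPT at 50 nM and 3 with ETO at 1 µM. These are the usual abbreviations of camptothecin, a poison of topoisomerase I, and etoposide, a poison of topoisomerase II. How long treatment lasted is not stated in these sources. The single-cell data are 2 Jurkat libraries given DMSO and 2 stimulated with PMA and ionomycin (clone name E6-2 in the labels of the stimulated libraries), 3 libraries of eHAP, a haploid human line, 2 libraries labelled K562 with and without IAA, and a mixture of Jurkat and mouse NIH3T3 cells without conversion. The titles of the DMSO, the stimulated and the K562-labelled libraries carry 4sU. The eHAP libraries are 1 standard 10x library without 4sU, 1 formaldehyde-fixed NOTE-seq library with 4sU, and 1 methanol-fixed library with 4sU and IAA.

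Interferons bind receptors whose kinases phosphorylate STAT proteins, and a complex that holds STAT2 and IRF9 then binds the interferon-stimulated response element (ISRE) in the promoters of antiviral genes. IRF3 and IRF7 act upstream, after RNA or DNA sensors such as IFIH1 (MDA5) and DDX58 (RIG-I), and switch on the interferon genes, while IRF1 responds mainly to interferon gamma. MHC class I molecules, made of a heavy chain (HLA-B, HLA-C, HLA-E) and the light chain B2M, carry peptides that TAP1 and TAP2 pump into the endoplasmic reticulum, and show them to cytotoxic T cells.

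The promoters of the genes are shown first because the ISRE is the sequence the family is known for. RefSeq promoter windows (GRCh38.p14, 250 bases before to 50 bases after a start site) were matched for 29 of the 38 genes, in 37 windows. The ISRE core was searched on both strands as GAAANNGAAA and the gamma-activated site (GAS), known from interferon gamma target genes, as TTCNNNGAA. The ISRE core was found for 17 of the 29 genes (58.6%; 20 of 37 windows, 54.1%), against 3.57% of 35116 promoters of the same length. The GAS letters were found for 8 of the 29 (27.6%; 8 of 37 windows, 21.6%), against 7.66% of those promoters, and in BST2, IFITM1 and MX1 matches to both motifs overlapped. The windows of HLA-B, HLA-C, STAT2, SP100 and IRF1 held no ISRE core in these letters. The lines give, 5′ to 3′ on the gene's own strand, the ISRE core nearest to the start site in capitals with 10 bases on each side, for the genes that passed a test in any comparison and for TAP1, which did not. Each is named with its position and strand in GRCh38.p14, and capitals that begin with TTTC are the motif on the opposite strand.
B2M (chr15:44711369-44711398, plus strand): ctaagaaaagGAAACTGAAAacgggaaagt
TAP2 (chr6:32838778-32838807, minus strand): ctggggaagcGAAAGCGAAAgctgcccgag
TAP1 (chr6:32853813-32853842, minus strand): ccgctttcgaTTTCGCTTTCccctaaatgg
BST2 (chr19:17405735-17405764, minus strand): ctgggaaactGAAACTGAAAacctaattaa
EIF2AK2 (chr2:37156967-37156996, minus strand): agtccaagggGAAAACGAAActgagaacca
IFI44 (chr1:78649761-78649790, plus strand): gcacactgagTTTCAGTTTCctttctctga
IFIH1 (chr2:162318686-162318715, minus strand): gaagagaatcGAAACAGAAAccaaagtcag
IFIT1 (chr10:89392510-89392539, plus strand): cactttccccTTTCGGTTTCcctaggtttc
IFIT3 (chr10:89332468-89332497, plus strand): gttccatcagTTTCACTTTCctttcccctt
IFITM1 (chr11:314024-314053, plus strand): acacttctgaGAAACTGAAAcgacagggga
ISG20 (chr15:88638937-88638966, plus strand): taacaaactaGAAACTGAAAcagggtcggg
OAS3 (chr12:112938452-112938481, plus strand): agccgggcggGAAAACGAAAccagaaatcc

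Of the tested genes, the 16 with an ISRE core had a median log2 change of 0.30 under CPT and 0.18 under ETO in total RNA, and the 11 whose windows lacked it 0.64 and 0.45. This is a description of these windows, with no test, and it leaves out the genes without a window.

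The Jurkat control libraries held 32509567 to 38582082 reads without mitochondrial genes, the CPT libraries 17776970 to 22433946 and the ETO libraries 24021586 to 39602287. Levels are given as CPM, reads scaled to a common TMM-adjusted library size, and since reads come from the 3′ end they were not divided by length. Mitochondrial reads took 1.14% ± 0.0958 of reads in the controls, 6.03% ± 0.689 after CPT and 2.96% ± 0.0768 after ETO (SD, n = 3), so they moved with treatment, and their part in the results was not tested. In all 5 Jurkat single-cell libraries, the mixture included, none of 11 T cell markers was at or under 1 CPM, whereas all 11 were in each eHAP library. No label says that replicates are separate cultures, so a p-value here reflects no more than the variation among these libraries.

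In total RNA most of the genes that changed rose, under both drugs, with 22 risers under CPT and 13 under ETO. In edgeR's quasi-likelihood test with Benjamini-Hochberg adjustment over all 14595 features tested, 25 of the 36 genes that could be tested changed under CPT (adjusted p under 0.05), against a background of 52.9% of all features. Of these, 22 rose (background 25.3%) and 3 fell (27.7%). Their median log2 change was 0.57, beside 0.00 for all features, and 30 of the 36 values were positive. Under ETO 16 of 36 changed (background 38.6%), 13 upwards (18.7%) and 3 downwards (19.9%), with a median of 0.29 beside 0.01 and 28 positive values. The CPT and ETO comparisons share the 3 control libraries. In bulk RNA, fewer cells of a kind and less RNA per cell cannot be told apart.

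Library by library, 23 of 36 genes (63.9%) were higher in every CPT library than in any control library, as were 28.6% of all features, and 4 (11.1%) were lower in every one, against 30.6%. Under ETO 18 (50.0%) were higher in every library, against 25.6%, and 3 (8.33%) lower, against 26.9%. MX1 and SAMHD1 could not be tested: their mean levels were at or under 0.506 CPM in each group. Of the 38 genes, 10 had a control mean under 1 CPM and 3 (B2M, HLA-C and IFI16) had 100 CPM or more. Calls that some alternative processing ended are named with their values beside each group of genes. Under CPT 16 of the 25 calls stood in every alternative run, and under ETO 12 of the 16.

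**Figure D1:**
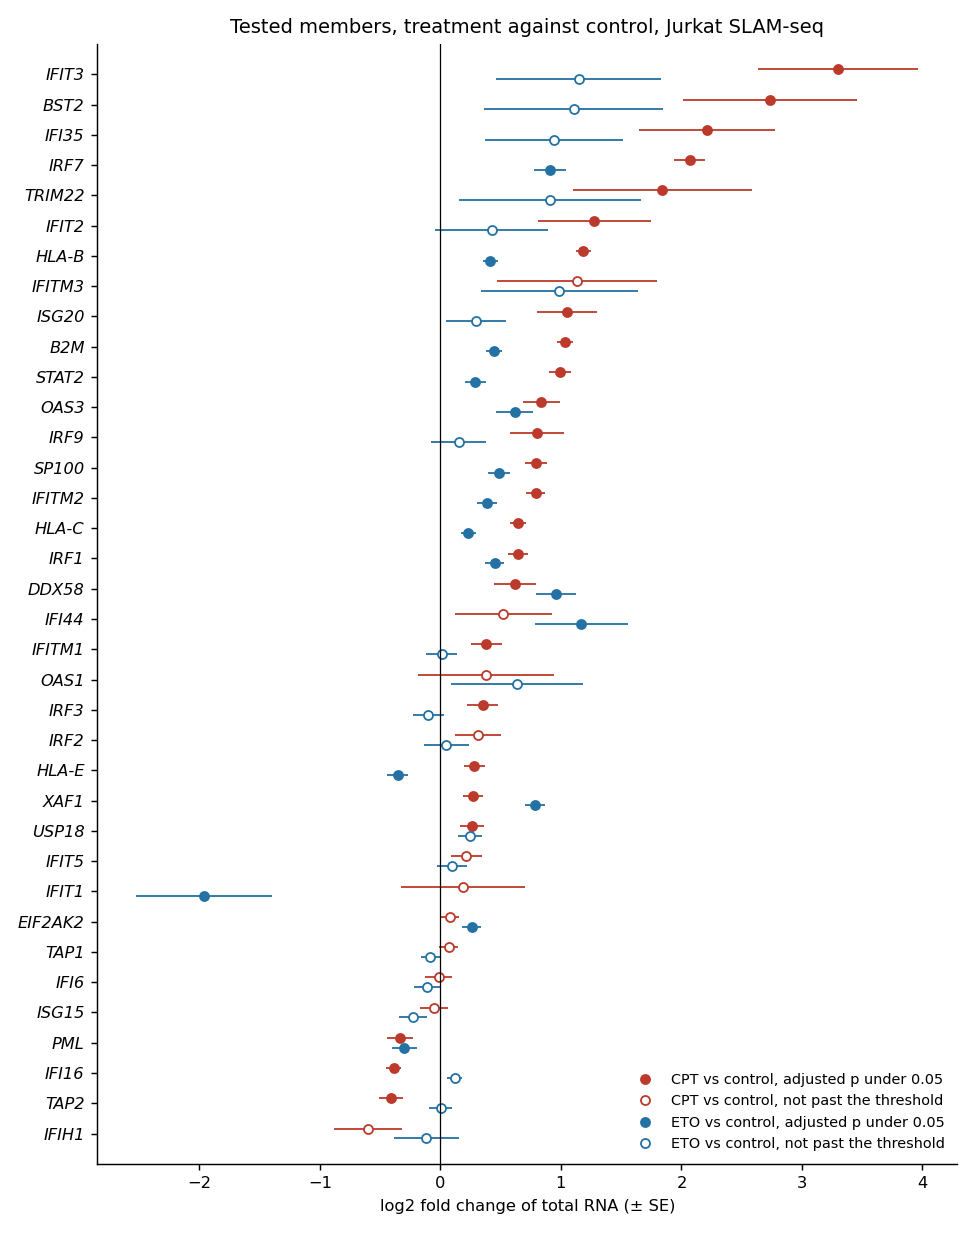
Log2 change of total RNA against control (x axis, bars are standard errors of the fit) for the 36 tested genes, ordered by their CPT value (y axis), under CPT and under ETO, with filled symbols for adjusted p under 0.05. Most points lie right of 0, with IRF7 at 2.07 under CPT and 0.91 under ETO.

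The class I heavy chains HLA-B and HLA-C and the light chain B2M rose under both drugs, and the rise was larger under CPT. B2M (chr15:44717607-44718877, 3′ UTR interval with most reads, GRCh38), the invariant light chain, had 525, 508 and 642 CPM in the 3 controls, 1148, 1101 and 1176 after CPT and 791, 729.9 and 764 after ETO. The 3 groups did not overlap, and the log2 change was 1.03 ± 0.07 (adjusted p = 3.7e-11) under CPT and 0.45 ± 0.07 (adjusted p = 1.6e-05) under ETO. HLA-B (chr6:31353875-31354296), a classical heavy chain, had control values of 65, 68.9 and 67 CPM, CPT values of 159, 145 and 153 and ETO values of 86.3, 90.5 and 90.9. Each CPT library lay above every ETO library and these above every control, and the changes were 1.18 ± 0.06 (adjusted p = 1.1e-12) and 0.41 ± 0.06 (adjusted p = 1.8e-05). HLA-C (chr6:31268749-31269168), the other classical heavy chain listed, had 152, 159.8 and 184 CPM in the controls, 269, 250.3 and 254 with CPT and 195, 191 and 196 with ETO. Its changes were smaller, 0.64 ± 0.06 (adjusted p = 2.9e-08) and 0.23 ± 0.06 (adjusted p = 0.0061), and its groups again did not overlap. Heavy chain genes are near-identical to each other in parts, so reads could have been split among them.

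HLA-E (chr6:30492749-30494194), a nonclassical heavy chain that inhibits natural killer cells, went opposite ways under the drugs. Its levels were 70.9, 64.5 and 57.6 CPM in the 3 controls, 70, 88.5 and 75.5 after CPT and 49.3, 52.6 and 49 after ETO. The ETO libraries lay below all controls, with a log2 change of -0.35 ± 0.09 (adjusted p = 0.0029), whereas the CPT libraries overlapped the controls, with 0.28 ± 0.09 (adjusted p = 0.01). That CPT call was lost without control replicate 3 (0.20, adjusted p = 0.086) and without CPT replicate 2 (0.17, adjusted p = 0.13). The transporter subunits did not follow the heavy chains. TAP1 (chr6:32845209-32845578) had control values of 35.5, 36.9 and 35.7 CPM, CPT values of 38.8, 38.1 and 36.5 and ETO values of 33.5, 32.9 and 35.7, and its changes of 0.07 ± 0.08 and -0.08 ± 0.08 did not pass. TAP2 (chr6:32825410-32828854; several intervals were summed) had 34.8, 35.7 and 39.3 CPM in the controls, 31, 28.4 and 23.3 with CPT and 35.4, 37.5 and 37.1 with ETO. It fell under CPT by 0.41 ± 0.10 on the log2 scale (adjusted p = 0.0014), with all CPT libraries below all others, and had 0.00 ± 0.10 under ETO, which did not pass. Of the 6 class I genes, 4 rose and 1 fell under CPT, and 3 rose and 1 fell under ETO.

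**Figure D2:**
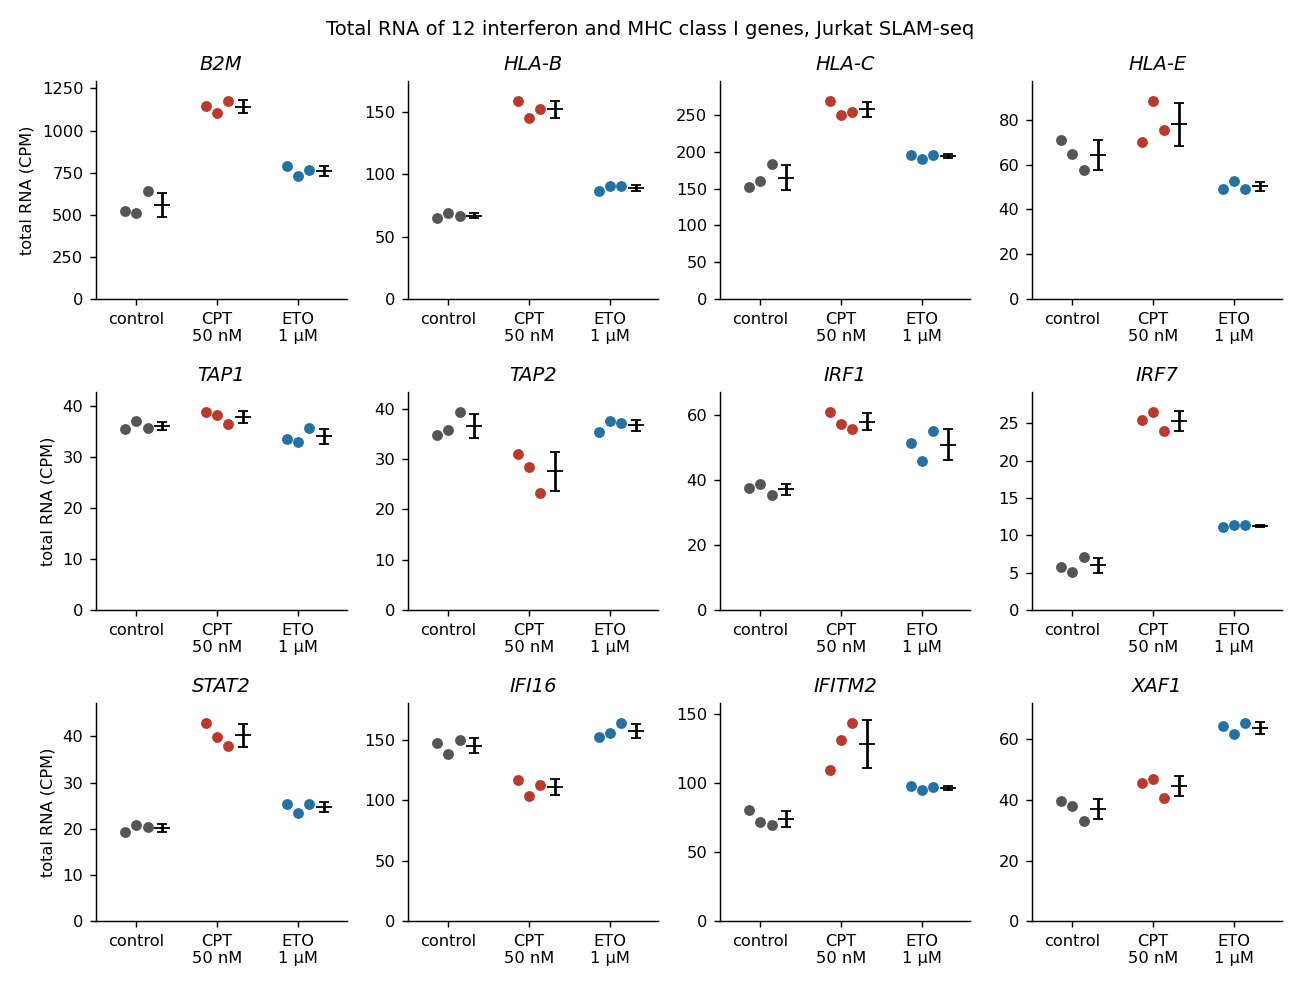
Total RNA level in CPM (y axes, linear from 0) in each of the 9 Jurkat SLAM-seq libraries (x axis, by group) for 12 of the genes, with 1 point for each library and the mean ± SD beside each group. In B2M, HLA-B and IRF7 the control, ETO and CPT libraries do not overlap, whereas HLA-E in ETO libraries lies below its controls.

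Among the transcription factors, 5 of 6 rose under CPT and 3 of 6 under ETO, and none fell. IRF7 (chr11:612555-612644), which drives the later wave of interferon genes, was the factor with the largest change. It had 5.79, 5.15 and 7.1 CPM in the 3 controls, 25.5, 26.5 and 23.9 after CPT and 11.2, 11.4 and 11.4 after ETO. The CPT libraries were above every ETO library and these above every control, with log2 changes of 2.07 ± 0.13 (adjusted p = 2.3e-11) and 0.91 ± 0.13 (adjusted p = 1.1e-05). STAT2 (chr12:56341597-56343388), the subunit of the ISRE-binding complex that activates transcription, had control values of 19.4, 20.9 and 20.4 CPM, CPT values of 42.9, 39.9 and 37.9 and ETO values of 25.4, 23.6 and 25.4. It rose by 0.99 ± 0.09 (adjusted p = 7.3e-09) and 0.29 ± 0.09 (adjusted p = 0.014), and the ETO call was lost without control replicate 1 (0.26, adjusted p = 0.062). IRF9, its DNA-binding partner, had 3.09, 4.81 and 4.86 CPM in the controls, 5.93, 6.4 and 10.1 with CPT and 4.67, 4.13 and 5.43 with ETO. It rose under CPT by 0.80 ± 0.23 (adjusted p = 0.005), was lost without CPT replicate 3 (0.52, adjusted p = 0.059), and overlapped the controls under ETO (0.15 ± 0.23, not passing).

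IRF1 (chr5:132481609-132483950), the factor of interferon gamma and inflammatory signals, had 37.5, 38.8 and 35.4 CPM in the 3 controls, 61, 57.2 and 55.8 after CPT and 51.5, 45.8 and 55.2 after ETO. It rose by 0.64 ± 0.08 (adjusted p = 1.1e-06) and 0.45 ± 0.08 (adjusted p = 0.00016), with no overlap between controls and either drug. IRF3, the constitutive factor that sensors activate by phosphorylation, had control values of 13.8, 14.1 and 14 CPM, CPT values of 15.9, 20.6 and 16.8 and ETO values of 14.8, 13.2 and 11.2. Its CPT change of 0.35 ± 0.13 (adjusted p = 0.026) was lost without any 1 of the controls (0.34 to 0.35, adjusted p = 0.063 to 0.069) and without CPT replicate 2 (0.22, adjusted p = 0.18), and its ETO change of -0.10 ± 0.13 did not pass. IRF2, which can repress the genes that IRF1 activates, had changes of 0.31 ± 0.19 and 0.05 ± 0.19, and neither passed.

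Of the 19 tested effectors, 10 rose and 1 fell under CPT, and 5 rose and 1 fell under ETO. Abundant effectors went different ways. IFITM2 (chr11:309166-309395), a membrane protein that blocks virus entry, had 80.7, 71.8 and 69.7 CPM in the controls, 109, 131 and 143 with CPT and 98.1, 95.1 and 96.8 with ETO, without overlap of the groups. It rose by 0.79 ± 0.08 (adjusted p = 5.2e-08) and 0.38 ± 0.08 (adjusted p = 0.00071). IFI16 (chr1:159054902-159055155), a sensor of DNA in the nucleus, had 147, 138 and 150.0 CPM in the 3 controls, 117, 103 and 113 after CPT and 152, 156 and 164 after ETO. It fell under CPT by 0.39 ± 0.06 on the log2 scale (adjusted p = 2.2e-05). Under ETO each of its libraries lay above the controls, but the change of 0.12 ± 0.06 did not pass. XAF1 (chr17:6773170-6775647), a proapoptotic antagonist of the caspase inhibitor XIAP, had control values of 39.5, 38.1 and 33.2 CPM, CPT values of 45.6, 47.1 and 40.7 and ETO values of 64.3, 61.6 and 65.3. ETO raised it by 0.79 ± 0.08 (adjusted p = 1.7e-07) and CPT by 0.27 ± 0.08 (adjusted p = 0.01), the latter lost without control replicate 3 (0.19, adjusted p = 0.091) or CPT replicate 2 (0.22, adjusted p = 0.061).

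At intermediate levels, OAS3, an enzyme that makes the 2′-5′ oligoadenylates which activate RNase L, had 6.27, 5.43 and 6.34 CPM in the controls, 9.39, 11.1 and 11.9 with CPT and 9.66, 10.1 and 7.89 with ETO. It rose by 0.84 ± 0.15 (adjusted p = 0.0001) and 0.62 ± 0.15 (adjusted p = 0.0029). IFITM1, a paralogue of IFITM2 at the cell surface, had 9.91, 11.5 and 11.5 CPM in the 3 controls, 14, 14.4 and 14.5 after CPT and 11.4, 9.7 and 12.2 after ETO. It rose under CPT by 0.38 ± 0.13 (adjusted p = 0.016), lost without control replicate 1 (0.31, adjusted p = 0.09), and had 0.01 ± 0.13 under ETO, which did not pass. ISG20, an exonuclease of single-stranded RNA, had control values of 2.22, 3.42 and 2.27 CPM, CPT values of 4.6, 6.31 and 5.45 and ETO values of 2.37, 3.55 and 3.73. Its CPT libraries lay above all others, with a change of 1.05 ± 0.25 (adjusted p = 0.0013), and its ETO change of 0.30 ± 0.25 did not pass. EIF2AK2, the kinase PKR that double-stranded RNA activates, had 65.1, 58 and 53.2 CPM in the controls, 59, 65.1 and 61.9 with CPT and 69.1, 74.1 and 67.7 with ETO. It passed under ETO alone, with 0.26 ± 0.08 (adjusted p = 0.011), a call lost without control replicate 3 (0.19, adjusted p = 0.094) or ETO replicate 2 (0.22, adjusted p = 0.072). Its CPT change was 0.08 ± 0.08. The IFITM and IFIT genes have close paralogues, and counts between them are uncertain.

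The effectors with the largest log2 changes stood at the lowest levels, close to 1 CPM or under it. IFIT3, which binds viral RNA together with IFIT1, had 0.225, 0.123 and 0.164 CPM in the 3 controls, 0.996, 2.8 and 1.33 after CPT and 0.5, 0.327 and 0.333 after ETO, and rose under CPT by 3.30 ± 0.67 (adjusted p = 0.00027). BST2 (tetherin), which holds budding viruses at the membrane, had control values of 0.193, 0.0617 and 0.164 CPM, CPT values of 1.04, 0.762 and 1.07 and ETO values of 0.333, 0.227 and 0.366. It rose under CPT by 2.74 ± 0.72 (adjusted p = 0.003). The CPT libraries of both genes lay above all others, on no more than 7 reads in a control and 66 in a CPT library. IFI35, an interferon-induced leucine zipper protein, had 0.676, 0.216 and 0.301 CPM in the controls, 1.57, 1.99 and 1.98 with CPT and 0.583, 0.479 and 1.23 with ETO, and rose under CPT by 2.21 ± 0.57 (adjusted p = 0.0024). IFIT2, a partner of IFIT3, had 0.772, 0.833 and 0.792 CPM in the 3 controls, 3.13, 1.61 and 1.07 after CPT and 0.75, 1.44 and 0.999 after ETO. Its CPT change of 1.28 ± 0.47 (adjusted p = 0.027) was lost with any 1 control left out (1.25 to 1.30, adjusted p = 0.07 to 0.076) and without CPT replicate 1 (0.74, adjusted p = 0.22).

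TRIM22, an antiviral ubiquitin ligase, had control values of 0.0965, 0.154 and 0.328 CPM, CPT values of 0.949, 0.551 and 0.641 and ETO values of 0.583, 0.378 and 0.167. Its CPT change of 1.84 ± 0.74 (adjusted p = 0.042) was lost without any 1 of the control or CPT libraries (1.53 to 2.46, adjusted p = 0.055 to 0.19). It was also lost without ETO replicate 1 or 2 (1.83, adjusted p = 0.059 to 0.064). IFI44, an interferon-induced cytoplasmic protein, had 0.901, 0.863 and 1.01 CPM in the controls, 1.57, 1.1 and 1.33 with CPT and 1.87, 1.64 and 2.76 with ETO. It passed under ETO alone, with 1.17 ± 0.39 (adjusted p = 0.021), lost without any 1 of the controls (1.12 to 1.24, adjusted p = 0.052 to 0.074) or ETO replicate 3 (0.91, adjusted p = 0.12). IFIT1, which binds viral RNA caps, had 1.16, 0.863 and 1.09 CPM in the 3 controls, 0.806, 1.36 and 1.39 after CPT and 0.333, 0.176 and 0.3 after ETO. It fell under ETO by 1.96 ± 0.56 on the log2 scale (adjusted p = 0.0087), with every ETO library below every other, while its CPT change of 0.19 ± 0.51 did not pass. ISG15, the ubiquitin-like modifier that marks a strong interferon response in many cells, did not pass, with -0.05 ± 0.12 under CPT and -0.23 ± 0.12 under ETO at 20.9 ± 1.73 CPM in controls (SD, n = 3). Nor did IFI6, IFIT5, IFITM3 and OAS1, whose log2 changes ran from -0.11 to 1.13 over both drugs.

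Of the RNA sensors, DDX58, which recognises short 5′ triphosphate RNA, had control values of 4.86, 4.75 and 3.93 CPM, CPT values of 5.74, 7.03 and 8.06 and ETO values of 8.66, 9.17 and 8.43. It rose by 0.62 ± 0.17 (adjusted p = 0.0048) and 0.96 ± 0.17 (adjusted p = 0.00011), and here the ETO libraries were the highest. IFIH1, which recognises long double-stranded RNA, had 3.41, 2.81 and 2.7 CPM in the controls, 2.47, 1.4 and 2.03 with CPT and 2.46, 2.75 and 3 with ETO. Its changes of -0.60 ± 0.28 and -0.12 ± 0.27 did not pass, although every CPT library was below every control. Both nuclear body genes passed, in opposite directions, PML only in the sum of its intervals. SP100, an interferon-induced chromatin protein, had 24.3, 21.5 and 25.9 CPM in the 3 controls, 42.2, 40.6 and 41.3 after CPT and 32.7, 36.1 and 31.7 after ETO. It rose by 0.79 ± 0.09 (adjusted p = 2.4e-07) and 0.49 ± 0.09 (adjusted p = 0.00019). PML, the scaffold of these bodies, had control values of 33.8, 31.4 and 30.9 CPM, CPT values of 26.7, 22.6 and 27.1 and ETO values of 29.5, 26.5 and 22.1. It fell under CPT by 0.33 ± 0.11 (adjusted p = 0.013) and under ETO by 0.30 ± 0.11 (adjusted p = 0.028) on the log2 scale, over several summed intervals. In its interval with most reads alone the changes were 0.02 (adjusted p = 0.94) and -0.29 (adjusted p = 0.18). PML was lost without CPT replicate 2 (-0.26, adjusted p = 0.067), and under ETO without control replicates 1 or 2 or ETO replicates 2 or 3 (-0.32 to -0.20, adjusted p = 0.057 to 0.17).

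USP18, which removes ISG15 from proteins and blocks the interferon receptor, had 19.7, 20.5 and 17.9 CPM in the controls, 23.8, 23.3 and 22.4 with CPT and 21.1, 24.5 and 22.9 with ETO. Its CPT change of 0.26 ± 0.10 (adjusted p = 0.034) was lost without control replicate 1 or 3 or CPT replicate 1 or 2 (0.20 to 0.27, adjusted p = 0.069 to 0.17), and its ETO change of 0.24 ± 0.10 did not pass (adjusted p = 0.057). Near-identical copies of USP18 elsewhere in the genome make its counts uncertain.

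Compared directly, 17 of the 36 genes differed between CPT and ETO libraries (edgeR; background 34.5%), 14 of them higher in CPT (16.1%) and 3 lower (18.4%). The median log2 difference was 0.28, and 27 of 36 were positive. B2M was higher in CPT by 0.58 ± 0.07 (adjusted p = 6.4e-07), HLA-B by 0.77 ± 0.06 (adjusted p = 4.5e-09), HLA-C by 0.41 ± 0.06 (adjusted p = 3.3e-05) and HLA-E by 0.63 ± 0.09 (adjusted p = 9.3e-06), so 4 of the 6 class I genes were higher. IRF7 (1.16 ± 0.12), STAT2 (0.70 ± 0.09), IFITM2 (0.40 ± 0.08) and IFIT1 (2.15 ± 0.57) were higher in CPT as well. The genes lower in CPT were IFI16, at -0.50 ± 0.06 (adjusted p = 2.1e-06), XAF1, at -0.52 ± 0.08 (adjusted p = 4.9e-05), and TAP2, at -0.41 ± 0.10 (adjusted p = 0.0025). In all, 19 genes were higher in every CPT library than in any ETO library (all features 20.7%) and 6 lower (22.4%).

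Of the 17 differences, 6 were lost in an alternative. IFIT3 (2.15 ± 0.62) was lost without CPT replicate 2 (1.58, adjusted p = 0.099), as was IRF3 (0.45 ± 0.13; 0.32, adjusted p = 0.077). IRF3 was also lost without ETO replicate 3 (0.35, adjusted p = 0.063), and SP100 (0.30 ± 0.09) without ETO replicates 1 or 3 (0.26 to 0.28, adjusted p = 0.051 to 0.061). IRF9 (0.65 ± 0.23) was lost without CPT replicate 3 (0.37, adjusted p = 0.22) or ETO replicates 1 or 2 (0.55 to 0.63, adjusted p = 0.072 to 0.12). ISG20 (0.75 ± 0.25) was lost without CPT replicate 2 or ETO replicate 1 (0.58 to 0.62, adjusted p = 0.091 to 0.1). IFITM1 (0.37 ± 0.13) was lost without CPT replicates 2 or 3 or ETO replicates 1 or 2 (0.27 to 0.38, adjusted p = 0.055 to 0.16). In edgeR it was also lost without the filter on low counts (0.36, adjusted p = 0.054) and with the compared groups alone (0.37, adjusted p = 0.051).

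Other genes of the pathway, from lists drawn up for this work, moved in both directions. Of 10 tested interferon receptor and JAK-STAT genes, 3 rose and 2 fell under CPT, and 2 rose and 2 fell under ETO. TYK2, a receptor kinase, rose by 0.84 ± 0.09 and 0.58 ± 0.09, and the receptor subunit IFNAR2 had -0.40 ± 0.06 and -0.31 ± 0.06, lower under both. Of 8 tested genes of nucleic acid sensing, 3 rose and 1 fell under CPT, and 2 rose under ETO. STING1, the adaptor of cytosolic DNA sensing, had 2.83, 3.24 and 4.13 CPM in the 3 controls, 15.7, 17.1 and 13.3 after CPT and 4.92, 3.78 and 3.36 after ETO, a change under CPT of 2.18 ± 0.19 (adjusted p = 2.8e-09). Of 14 tested other genes of class I presentation, 8 rose and 3 fell under CPT, and 7 rose and 1 fell under ETO. NLRC5, the transactivator of class I genes, had control values of 2.03, 2.37 and 1.15 CPM, CPT values of 4.03, 6.01 and 4.54 and ETO values of 1.83, 2.39 and 3.1. It rose under CPT by 1.40 ± 0.30 (adjusted p = 0.00046). Of 38 tested other interferon-induced genes, 16 rose and 6 fell under CPT, and 13 rose and 3 fell under ETO. SLFN5 had 35.5, 36.6 and 34.4 CPM in the controls, 116, 104 and 121 with CPT and 45.3, 44.8 and 56 with ETO, a change under CPT of 1.68 ± 0.09 (adjusted p = 8e-13). RSAD2 (viperin), an antiviral enzyme, rose by 1.23 ± 0.18 and 1.28 ± 0.17, and NMI, a partner of IFI35, by 0.74 ± 0.09 and 0.76 ± 0.09. These named calls stood in every alternative run, and the backgrounds are those given above for the same comparisons.

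The percentage of reads from a gene with T-to-C conversions rises with how much of its RNA was made during labelling. It also depends on how many T positions the reads cover, so an order of genes by this share is not an order of renewal alone. Converted reads made up 2.00% ± 0.0484 of all reads in the controls, 1.22% ± 0.0109 after CPT and 2.16% ± 0.00549 after ETO (SD, n = 3). No unlabelled bulk Jurkat library was used here, so these shares include sequencing errors and sequence differences from the reference. For the 24 genes with at least 100 reads in every control library the median share was 1.56% (SD 0.333 over 3 libraries), beside 2.58% over 10710 features, and 18 of the 24 lay under that value. Counting converted T positions instead of reads, the medians were 0.142% and 0.222%. Reads were not tied to single molecules, so their precision covers counting error only.

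IRF1 had the highest share, 10.4, 10.9 and 11.7% in the 3 control libraries, a mean of 11% ± 0.687 (SD, n = 3), above 96.3% of all features. IFIT5, a paralogue of IFIT1, followed with 8.94% ± 1.24 and IRF2 with 5.27% ± 1.91; IFIT5 and IRF2 did not overlap. Among the class I genes the peptide transporter subunit TAP2 had 2.46% ± 1.47, HLA-E 1.56% ± 0.316 and HLA-B 1.56% ± 0.396. B2M had 1.1% ± 0.216, TAP1 1.06% ± 0.133 and HLA-C 0.92% ± 0.135, and the ranges of neighbours among these genes overlapped. IFITM2 had 0.311% ± 0.0377 and ISG15 0.122% ± 0.211, the lowest of the 24. ISG15 rests on 3 converted reads of 2103 over the control libraries. Lengths of the intervals with most reads differed, at 62 bases for ISG15, 2342 for IRF1 and 2478 for XAF1, which had 0.623%. The part of T positions in the order of genes was not tested. The medians over the 24 genes were 1.12% in CPT and 1.86% in ETO libraries, in the same order as the shares of all reads.

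**Figure D3:**
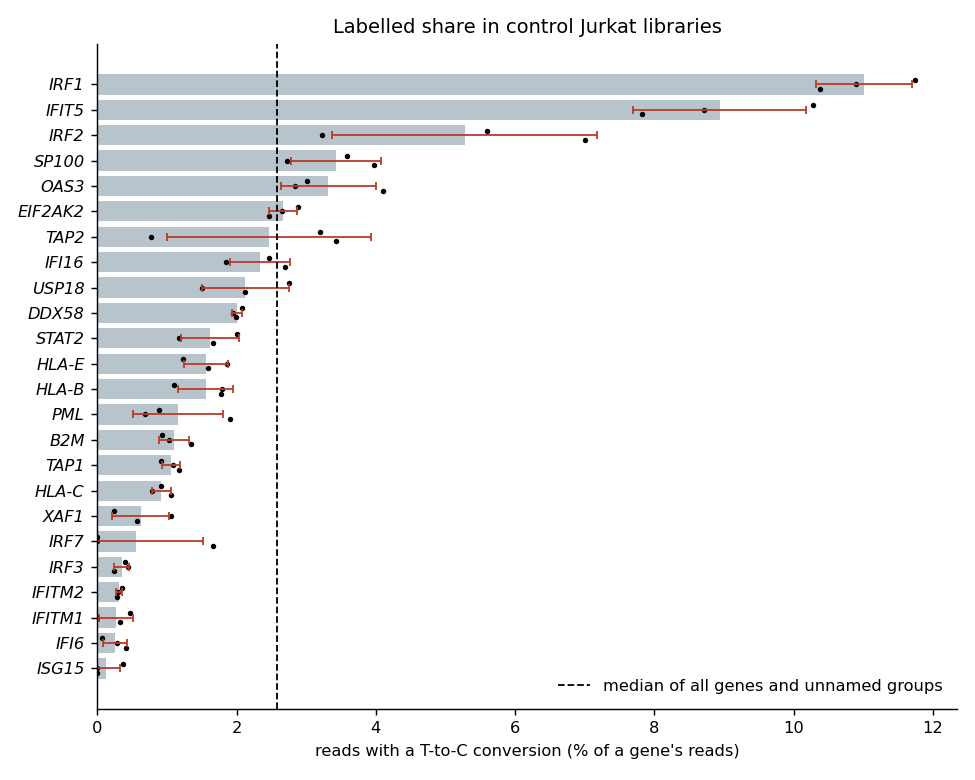
Percent of reads with T-to-C conversions (x axis) in the control libraries for the genes with at least 100 reads in each (y axis), with bars from 0 to the mean, 1 point for each library and error bars of 1 SD. IRF1 stands highest at 11.0% and ISG15 lowest at 0.122%, and 18 of 24 genes lie left of the line at the median of all features, 2.58%.

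Converted reads alone, taken as new RNA, were far fewer, so that 18 of the genes could be tested, and edgeR called none of them in any of the 3 comparisons. The backgrounds were 6.37% for CPT against control, 1.99% for ETO against control and 2% for CPT against ETO. At an unadjusted p under 0.05 there were 7, 5 and 2 genes, and DESeq2 called 4, 2 and 1 of 34. Over all features the unadjusted shares were 20.3%, 12% and 16.2%, and DESeq2 called 8.11%, 3.30% and 4.09% of 14679. Median log2 changes were 0.59 under CPT, 0.48 under ETO and 0.09 between the drugs, beside -0.06, 0.00 and -0.05 for all features, with 13, 12 and 12 of 18 positive. These values are relative to the total of converted reads in each library. When all reads set the library sizes, the median over features shifted to -0.90 for CPT against control, 0.05 for ETO and -0.93 for CPT against ETO. The medians of the genes then were -0.25, 0.53 and -0.79, with 6, 12 and 1 of 18 positive. The median for CPT against control thus changed sign with the scaling, as did 7 of the 18 genes.

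B2M had 219, 169 and 218 converted reads in the controls, 88, 161 and 89 with CPT and 196, 246 and 169 with ETO. Its new RNA changed by 0.63 ± 0.21 (adjusted p = 0.07) under CPT and 0.08 ± 0.20 (adjusted p = 0.93) under ETO relative to all converted reads. DESeq2 called the CPT change (0.67, adjusted p = 0.017), as did edgeR without CPT replicate 1 (0.75, adjusted p = 0.027), and with all-read library sizes its value was -0.20. IFITM2 rested on few reads, 7, 7 and 9 converted reads in the controls, 8, 15 and 11 with CPT and 17, 47 and 28 with ETO. Its changes were 2.03 ± 0.63 (adjusted p = 0.054) and 1.97 ± 0.60 (adjusted p = 0.1), and DESeq2 called both (2.09, adjusted p = 0.0035, and 2.01, adjusted p = 0.0034). Without CPT replicate 1, edgeR called it under both drugs (2.21, adjusted p = 0.026, and 1.98, adjusted p = 0.037). IRF1 had 121, 137 and 152 converted reads in the controls, 64, 123 and 53 with CPT and 144, 267 and 162 with ETO. Its changes were 0.69 ± 0.23 (adjusted p = 0.072) and 0.51 ± 0.22 (adjusted p = 0.33). DESeq2 called the CPT change (0.74, adjusted p = 0.015), and edgeR did without CPT replicate 1 (0.80, adjusted p = 0.034) or 3 (0.85, adjusted p = 0.022), while its value was -0.14 with all-read library sizes. These 3 genes had the same sign in new and total RNA under both drugs by the first scaling.

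HLA-B had 36, 40 and 27 converted reads in the controls, 9, 44 and 24 with CPT and 10, 22 and 28 with ETO. Under CPT its new RNA changed by 1.03 ± 0.50 (adjusted p = 0.25) and under ETO by -0.75 ± 0.51 (adjusted p = 0.62). Between the drugs the difference was 1.78 ± 0.52 (adjusted p = 0.075), which DESeq2 called (1.81, adjusted p = 0.011). Without CPT replicate 1 edgeR called HLA-B for CPT against control (1.42, adjusted p = 0.049) and against ETO (2.16, adjusted p = 0.01). HLA-C had -0.22 ± 0.51 and -0.51 ± 0.48, which did not pass, and errors this wide cannot show a difference from its total RNA. HLA-E had 1.15 ± 0.41 under CPT, called by DESeq2 alone (1.20, adjusted p = 0.025), and XAF1 1.90 ± 0.69 under ETO, called by DESeq2 (1.94, adjusted p = 0.029). With the control and ETO libraries alone, edgeR called IFI16 (0.57, adjusted p = 0.045), IFIT5 (0.85, adjusted p = 0.045), IFITM2 (1.99, adjusted p = 0.0086), IRF1 (0.52, adjusted p = 0.034) and XAF1 (1.91, adjusted p = 0.022). In that fit 885 of all 8607 features were called, 478 of them higher in ETO. With all-read library sizes, EIF2AK2 (-1.27), IFI16 (-0.90) and IRF1 (-0.70) were called lower in CPT than in ETO (adjusted p = 0.013, 0.0089 and 0.018). That fit called 3542 of all 8788 features lower in CPT, so most of its calls go the same way.

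Among the other pathway genes, CALR, the chaperone calreticulin, changed in new RNA under ETO by 0.82 ± 0.15 (adjusted p = 0.0015) and kept that call in every alternative. SLFN5 changed under CPT by 1.74 ± 0.38 (adjusted p = 0.0056), lost without control replicate 3 (1.47, adjusted p = 0.067) and with all-read library sizes (0.91, adjusted p = 0.066). CANX, a chaperone of class I heavy chains, had 0.55 ± 0.16 (adjusted p = 0.041) under CPT, lost without any 1 library but CPT replicate 3 (0.41 to 0.56, adjusted p = 0.066 to 0.2) and at -0.29 with all-read sizes. In edgeR a replicate block (0.53, adjusted p = 0.051) and the compared groups alone (0.58, adjusted p = 0.077) also ended the CANX call. The antiviral zinc finger protein ZC3HAV1 had 0.76 ± 0.17 (adjusted p = 0.01) under ETO, lost without any 1 control or ETO replicate 1 or 3 (0.65 to 0.80, adjusted p = 0.059 to 0.12). Between the drugs 3 genes were called and each was lost. SLFN5 (1.51 ± 0.37) was lost without any 1 library but CPT replicates 2 and 3 (1.31 to 1.53, adjusted p = 0.05 to 0.13). TRIM14 (-2.66 ± 0.68) was lost without any 1 but CPT replicates 1 and 3 (-2.80 to -2.27, adjusted p = 0.064 to 0.15). ZC3HAV1 (-0.75 ± 0.18) was lost without ETO replicate 1 or 3 (-0.70 to -0.65, adjusted p = 0.12 to 0.13) and in its interval with most reads (-0.52, adjusted p = 0.18). With the compared groups alone edgeR called none of these 3 (adjusted p = 0.071 to 0.17). A replicate block ended the calls of SLFN5 (adjusted p = 0.069) and TRIM14 (adjusted p = 0.079), and all-read library sizes that of SLFN5 (0.62, adjusted p = 0.19).

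The ratio of converted to other reads asks whether a gene's labelled share changed after TMM scaling of both kinds of reads. This scaling does not set the median feature at 0, so values are to be read beside the medians below. Of 33 genes tested none passed under CPT (background 0.731%) or ETO (background 0.47%), with 5 at an unadjusted p under 0.05 for each drug (15.2%), beside 12.7% and 7.05% of 13411 features. Median log2 changes of the ratio were -0.16 under CPT (all features -0.30) and 0.25 under ETO (all features -0.06). HLA-C had -0.98 ± 0.41 and -0.91 ± 0.38, and B2M -0.53 ± 0.19 and -0.42 ± 0.19, below 0 and below the medians of all features under both drugs. HLA-B had -1.23 ± 0.45 under ETO and HLA-E 0.95 ± 0.41. IFITM2 had 1.15 ± 0.48 and 1.57 ± 0.44, and IFI16 0.83 ± 0.27 under CPT. Some calls appeared with fewer libraries: without CPT replicate 1, IFI16 passed under CPT (1.08, adjusted p = 0.027) and IFITM2 under ETO (1.59, adjusted p = 0.049). B2M passed under CPT without CPT replicate 2 (-0.76, adjusted p = 0.022). IFITM2 also passed in the control and ETO libraries alone (1.60, adjusted p = 0.018).

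PMA and ionomycin activate protein kinase C and calcium signalling and so mimic a T cell receptor signal. The 4 Jurkat single-cell libraries fall into 2 sets of 1 DMSO and 1 stimulated library, set 1 labelled as replicate 1 and set 2 without a number, and held 1842 and 392 DMSO and 2296 and 1933 stimulated cells. UMIs, the tags of single molecules, were summed over all cells of a library and are given as CPM. With the set as a term, edgeR called 4 of 32 tested genes, all higher in stimulated libraries, against a background of 10.8% of 19094 genes (5.62% higher, 5.17% lower). The median log2 change was 0.03, beside -0.02 for all genes. With 4 libraries and a set term, the spread of a single gene is barely measured. The p-values and standard errors of this fit therefore lean on spread shared over all genes, and do not measure how far the sets differ. Without the set term edgeR called 0 of 19094 genes (217 at an unadjusted p under 0.05), the listed genes included, so all 4 calls rest on that term. None of the listed genes was called in the fits that left out 1 of the 4 libraries (0 to 40 of all genes were), which could not carry the set term.

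XAF1 went from 44.3 to 134 CPM in set 1 and from 16.1 to 42.1 in set 2, a change of 1.54 ± 0.13 (adjusted p = 1.8e-28). The share of cells with at least 1 XAF1 UMI went from 49% to 71.1% and from 20.9% to 29.6%. With cells thinned to 2000 UMIs it went from 7.15% to 19.6% and from 1.7% to 7.7%, and in eHAP cells it was at most 0.0985%. XAF1 thus rose in both sets. IRF1 went from 10.6 to 18 CPM in set 1 and from 13.3 to 23.9 in set 2, a change of 0.82 ± 0.16 (adjusted p = 8.4e-06), also upwards in both. IFIH1 went from 12.1 to 23.2 CPM in set 1 and from 6.92 to 6.72 in set 2, with 0.65 ± 0.18 (adjusted p = 0.0043), and IRF2 from 30.5 to 51.3 CPM in set 1 and from 14.3 to 11.6 in set 2, with 0.40 ± 0.15 (adjusted p = 0.0495). These 2 genes were higher in set 1 only. Without stimulated replicate 1 their values were -0.25 and -0.68, DESeq2 called neither (0.52 and 0.28), and IRF2 was lost without the filter on low counts (0.41, adjusted p = 0.088). XAF1 ranged from 0.77 to 2.21 and IRF1 from 0.41 to 1.24 as 1 library was left out.

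No class I gene passed. HLA-B went from 58 to 64.5 CPM in set 1 and from 20.8 to 27.8 in set 2, B2M from 417 to 429 CPM in set 1 and from 246 to 291 in set 2 and HLA-C from 97.1 to 93.7 CPM in set 1 and from 156 to 161 in set 2. Of the 32 tested genes, 9 were higher in the stimulated library of both sets (28.1%, beside 27.2% of all genes), 8 were lower in both (25%, beside 35.5%), 14 had opposite signs, and TRIM22 had no UMI in the DMSO library of set 2. The sets also differed from each other: among DMSO libraries, TAP1 was 4.83-fold and ISG15 2.62-fold higher in set 2, whereas XAF1 stood at 0.363 times and HLA-B at 0.358 times its set 1 level. In the pathway lists 1 of 11 tested receptor and JAK-STAT genes was called, upwards, 1 of 9 sensing genes, downwards, 1 up and 1 down of 15 other class I genes, and 2 up and 5 down of 39 other interferon-induced genes. The receptor chain IFNGR2 changed by 1.09 ± 0.13 (adjusted p = 1.5e-15), and TAPBP (tapasin), which loads peptide onto class I, by 0.77 ± 0.12 (adjusted p = 4.9e-08), with values of 0.84 to 1.29 and 0.08 to 1.42 as 1 library was left out. The kinase TBK1, at -0.43 ± 0.14 (adjusted p = 0.026), and the peptide trimming enzyme ERAP2, at -0.48 ± 0.13 (adjusted p = 0.0036), were lost with DESeq2 (adjusted p = 0.25 and 0.095). TBK1 was also lost in edgeR without the filter on low counts (-0.42, adjusted p = 0.058).

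**Figure D4:**
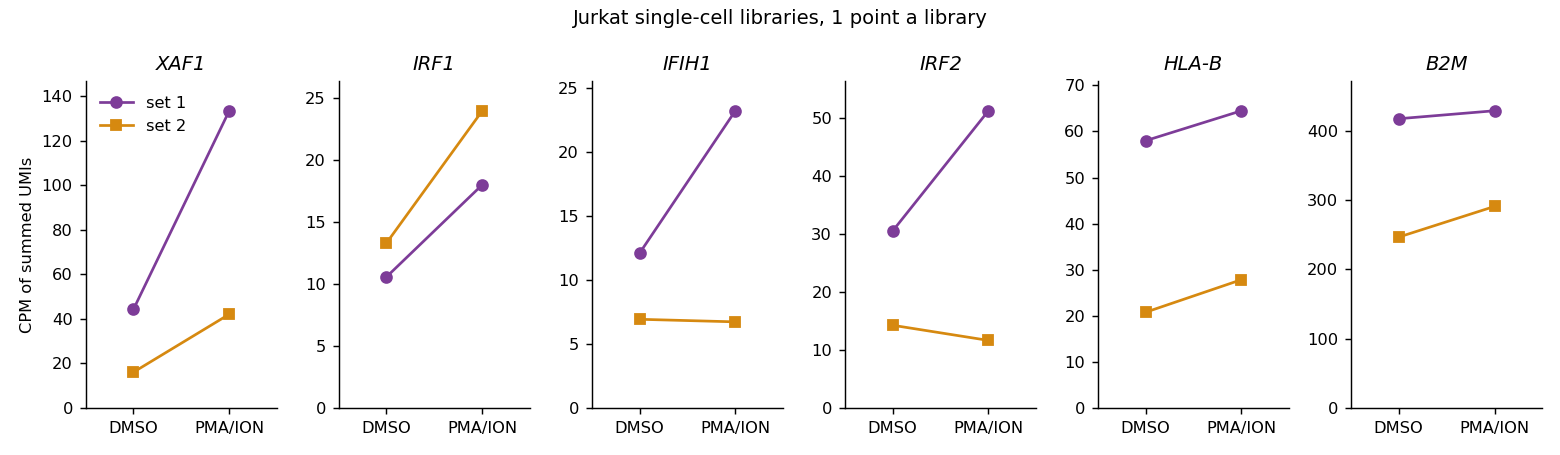
CPM of summed UMIs (y axes, from 0) in the DMSO and the stimulated Jurkat library (x axis) of set 1 and set 2, for the 4 called genes and for HLA-B and B2M, with 1 point for each library and a line joining a set. XAF1 and IRF1 are higher on the right in both sets, IFIH1 and IRF2 in set 1 alone.

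The lines differ in which of these genes they express. B2M had 417 and 246 CPM in the DMSO Jurkat libraries, 283, 334 and 779 in the eHAP 10x, NOTE-seq and methanol libraries, and 2368 in the library labelled K562 with IAA. HLA-B had 58 and 20.8, then 30.9, 94.2 and 62.8, and 805 in the same order. IFI16 had 239.8 and 167 CPM in Jurkat and 1 UMI in each eHAP library. BST2 went the other way, with 94.1, 79.4 and 127 CPM in eHAP and at most 0.142 in the 4 Jurkat libraries. TRIM22 (29.3 CPM) and SAMHD1 (27.1 CPM), a nucleotide-depleting virus restriction factor, were present in the eHAP 10x library, and were at 0.667 and 0 and at 1.15 and 0.831 in Jurkat. With 1 library of most kinds, these levels have no test.

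Under 1 CPM in all 4 Jurkat libraries and in the Jurkat cells of the mixture were 9 of the 38 genes (BST2, IFIT1, IFIT2, IFIT3, IFITM1, IFITM3, MX1, OAS1 and TRIM22). In all eHAP libraries 8 were (IFI16, IFI44, IFIH1, IFIT2, IFITM3, MX1, OAS1 and XAF1). At 100 CPM or more stood 4 genes in the mean of the DMSO Jurkat libraries and 5 in each library labelled K562. That label goes against the markers: in the library with IAA 11 of 12 erythroid markers were at or under 1 CPM, with HBG1, HBG2, HBE1, HBA1 and HBA2 at 0. K562 is an erythroleukaemia line whose defining markers these are. Of 11 myeloid markers 3 and of 8 B cell markers 5 were at or under 1 CPM there, with LYZ at 134, S100A9 at 106 and the B cell factor PAX5 at 32.8 CPM, so its levels are given for the library labelled K562 and not for the line. The second such library, without IAA, held 49 cells. Between any pair of the 10 human single-cell libraries 0 to 6 cell barcodes were shared.

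**Figure D5:**
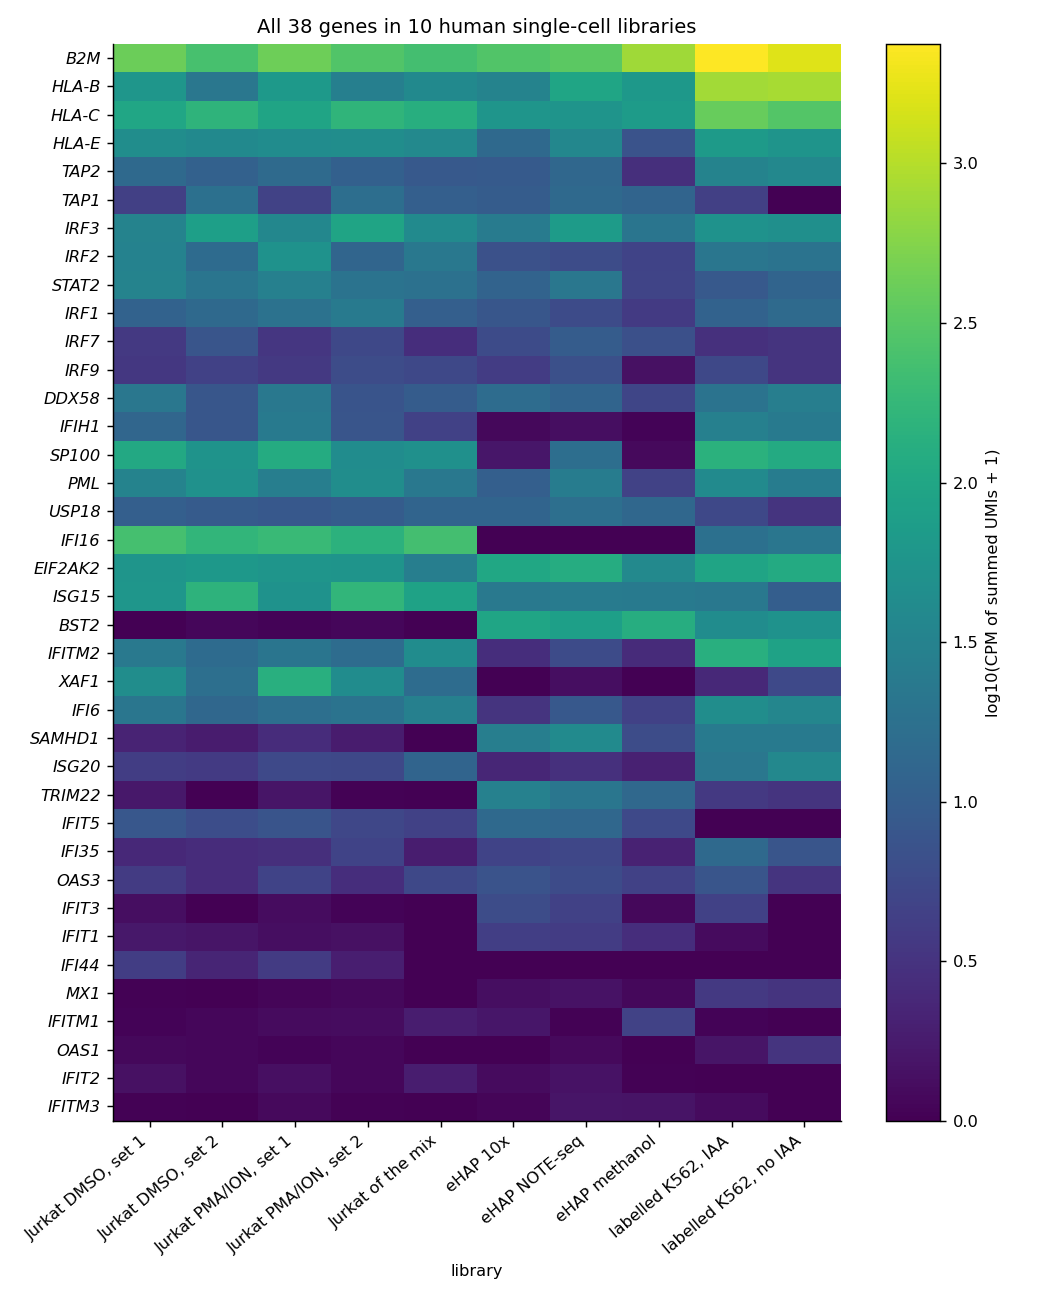
Heat map of log10(CPM + 1) of summed UMIs for the 38 genes (rows, by role) in the 10 human single-cell libraries (columns), from dark for 0 to yellow for the highest. IFI16 is dark in the eHAP columns and green in the Jurkat columns, BST2 is the reverse, and B2M is high in all 10.

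Between protocols in eHAP cells, 29 genes of the list had at least 100 UMIs summed over the 2 libraries in each of the comparisons below, SP100 in the first alone and IFITM1 in the other alone. Against the 10x library, 7 of the 29 differed at least 2-fold in the NOTE-seq library, all of them higher, beside 23.8% of 14711 genes (17.3% higher, 6.49% lower). The median log2 ratio was 0.52, beside 0.12, and 19 of 29 were positive. There is 1 library of each kind and no test, and intervals cover counting error only. HLA-B had 30.9 CPM (95% interval 29.5 to 32.4) in the 10x library and 94.2 (90.9 to 97.5) in the NOTE-seq library, a log2 ratio of 1.61. HLA-E had 13.4 CPM (95% interval 12.4 to 14.4) in the 10x library and 35.8 (33.8 to 37.9) in the NOTE-seq library. SP100 had 0.59 CPM (95% interval 0.406 to 0.828) in the 10x library and 15.4 (14.1 to 16.8) in the NOTE-seq library, 33 against 523 UMIs, a ratio of 26.1-fold. It passed the limit of 100 only through the NOTE-seq library, where it is high. IFI6 (3.36-fold), IFITM2 (2.83-fold), IRF3 (2.82-fold) and PML (2.61-fold) were the others.

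In the methanol library 16 of the 29 genes differed at least 2-fold from the 10x library, 3 higher and 13 lower, beside 66.4% of 14142 genes (3.49% higher, 62.9% lower). The median log2 ratio was -0.84, beside -1.47 for all genes. With TMM factors, which were 1.35, 1.48 and 0.503 for the 10x, NOTE-seq and methanol libraries, 15 differed, 13 higher and 2 lower. These factors move the ratios of all genes by the same amount. By both scalings 10 of the 29 genes were higher and 8 lower, and 11 changed sign. No share over all genes was taken with TMM factors or by both scalings, so these counts stand without a background. At least 2-fold higher by both were B2M, HLA-B and IFITM1. B2M had 283 CPM (95% interval 279 to 288) in the 10x library and 779 (773 to 785) in the methanol library, a log2 ratio of 1.46, or 2.88 with TMM factors. HLA-B had 30.9 CPM (95% interval 29.5 to 32.4) in the 10x library and 62.8 (61.1 to 64.5) in the methanol library, 1.02 or 2.45. IFITM1 had 0.608 CPM (95% interval 0.421 to 0.849) in the 10x library and 3.62 (3.22 to 4.06) in the methanol library, 2.57 or 4.00. IFITM1 rests on 34 UMIs in the 10x library and passed the limit of 100 only through the methanol library, where it is high. At least 2-fold lower by both were IRF9 (-2.83 or -1.41) and IFIT3, with 34 and 15 UMIs in the methanol library. Both genes passed the limit of 100 only through the 10x library, where they are high. IFIT3 had 5.08 CPM (95% interval 4.5 to 5.7) in the 10x library and 0.185 (0.104 to 0.306) in the methanol library, -4.78 or -3.35.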

How the data were processed

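The authors deposited, for 9 Jurkat SLAM-seq libraries, tables of read counts and of converted read counts for each annotated 3′ UTR interval, and for the single-cell libraries matrices of UMI counts for each gene and cell barcode. Per the submitters' processing notes, slamdunk 0.4.3, cellranger 7.1.0, GENCODE V33 and GRCh38 were used; per the file headers the matrix of the human and mouse mixture came from cellranger 7.2.0 and the other matrices used here from 7.1.0; mapping and filter settings are not given in the sources used here. Of overlapping intervals on a strand, only the one with most reads was kept. Kept intervals were named from RefSeq positions (GRCh38.p14), which gave 98.3% of their reads a name, and those of the same gene were summed. Libraries were grouped by their labels.

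Total and converted reads were tested with edgeR 4.0.16 (R 4.3.3; filterByExpr, TMM, quasi-likelihood test over all 9 libraries, Benjamini-Hochberg over all features, threshold 0.05), and UMIs summed per library likewise with the set as a term. The ratio test used the interaction of read type with treatment, with a term for each library. The edgeR test was tried on simulated counts, for CPT against control in new and total RNA and for stimulated against DMSO cells. The ratio test was not. In the mixture, 239 of 586 barcodes with at least 90% human UMIs were used; no doublet caller was run. The eHAP ratios were taken over genes whose UMIs in both libraries summed to 100 or more, with exact Poisson 95% intervals. Values in every library are given for genes past the threshold in a test, and up to 4 genes of each other pathway list are named by smallest p. The genes, lists and tests were chosen with earlier results of these data known. Alternatives were another tool (DESeq2 1.42.0), no filter on low counts, a replicate block, the compared groups alone, other library sizes, only the interval with most reads, and each library left out in turn.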

Additional observations from a re-analysis of the deposited data

How the results depend on the processing

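The counts of called genes in total RNA stayed within 1.5 times the reported ones under every alternative run. In new RNA, DESeq2 called 4 genes for CPT against control, 2 for ETO against control and 1 for CPT against ETO, where edgeR called none. Leaving out 1 library gave 0 to 4, 0 to 1 and 0 to 1. The highest counts came without CPT replicate 1, where 811, 309 and 308 of 9427 features were called. The compared groups alone gave 5 for ETO against control, where 885 of 8607 features were called. All-read library sizes gave 3 for CPT against ETO, where 3556 of 8788 features were called. The ratio of converted to other reads gave 0 to 1 for each drug with 1 library left out, and 1 for ETO with the compared groups alone. Without CPT replicate 1, 239 of 13814 features were called under CPT and 156 under ETO. Without CPT replicate 2, 257 of 13816 were called under CPT, and the compared groups alone gave 343 of 13197 for ETO. In stimulated against DMSO cells, DESeq2 called 2 genes, where 627 of 30851 were called. The fit without the set as a block called 0, where 0 of 19094 were called. The median share was 0.142% when counted over T positions.

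Among the genes named in the text, values that changed sign included PML under CPT in its interval with most reads (0.017), and, over the fits without 1 library, IFIH1 (-0.25 to 1.17) and IRF2 (-0.68 to 1.09), both lowest without stimulated replicate 1. In new RNA with all-read library sizes 7 of 18 genes changed sign for CPT against control, 0 for ETO against control and 11 for CPT against ETO, and the CPT values were -0.20 for B2M, -0.14 for IRF1, -0.29 for IFI16 and -0.29 for CANX. B2M under ETO ranged from -0.073 (without ETO replicate 1) to 0.19 with 1 library left out, and was -0.0038 without control replicate 2. The cause was not tested. Of the remaining values of single genes under an alternative, 1220 kept direction and side of the threshold, 149 lost it, 16 gained it and 5 ratios moved beyond counting error. Without the filter on low counts, the CPT calls of TRIM22 (adjusted p = 0.11) and USP18 (adjusted p = 0.10) were lost.

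Same-numbered SLAM-seq libraries did not deviate together (correlations of -0.03 to 0.02), so no effect shared by number was seen. Whether the numbers mark pairs is not stated in the labels. A replicate block gave 23, 16 and 17 called genes in total RNA for CPT, ETO and CPT against ETO, and 0 in new RNA. Over all features it called 7479, 5358 and 4750 of 14595 in total RNA, and 418, 147 and 119 of 9056 in new RNA. Under the block the CPT calls of IFIT2 (adjusted p = 0.051) and TRIM22 (adjusted p = 0.078) were lost. Depth limits the genes near 1 CPM and the new RNA tests, in which 18 of 38 genes passed the filter.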
